A study of Homo sapiens with 8 samples.

Results

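Vault RNAs are short noncoding RNAs made by RNA polymerase III. They were named after the vault, a large hollow ribonucleoprotein particle built mainly from the major vault protein MVP, and only part of the cell's vault RNA sits in that particle. VTRNA1-1 is known to bind SQSTM1 (p62), the receptor that hands cargo to autophagosomes, and to restrain its oligomerisation, and the methyltransferase NSUN2 modifies it. Here the vault RNAs were followed in the small RNA of HEK293 cells, a human embryonic kidney line, after transfection of a tRNA fragment. All rows whose names start with VTRNA were taken from the count table, 4 of 2962 gene rows. They are the genes VTRNA1-1, VTRNA1-2 and VTRNA1-3 and VTRNA3-1P, which RefSeq lists as a pseudogene. VTRNA2-1 was not analysed here.

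The cells had received, by Lipofectamine RNAiMax, 50 nM of a mimic of the 3′ fragment of tRNA-Asp-GTC (a tRNA-derived RNA, tDR) in 4 libraries, or 50 nM of a scrambled mimic (control) in 4 libraries, and were collected 48 h later. Libraries came from TRIzol total RNA with OTTR-seq, where the reverse transcriptase itself joins the adapters to the copy of each RNA. Whether the replicates came from separate cultures is not stated in the labels. The p-values then measure only how far these libraries spread, and that spread may be technical. Counts over gene rows summed to between 6910186 and 8007025 in the tDR libraries and between 4016295 and 10246336 in the control libraries. The labels can be checked on the row scr2, whose name they do not explain and which held 240, 109, 59 and 99 counts in tDR libraries 1 to 4 and 29112, 48485, 22444 and 58186 counts in control libraries 1 to 4. The row scr did not separate the groups, with 29, 0, 1 and 0 counts in tDR libraries 1 to 4 and 25, 27, 4 and 7 counts in control libraries 1 to 4. The row of the parent tRNA, tRNA-Asp-GTC-2, had a log2 fold change of 0.11, tDR over control (edgeR adjusted p = 0.757), and whether reads of the transfected fragment were counted in it is not stated. All 7 microRNAs listed as typical of HEK293 cells were detected, with summed counts of 4411 to 8077 in the tDR libraries and 5726 to 17948 in the control libraries. Their median log2 fold change was -0.32, with 5 of the 7 below 0 and 1 lower in edgeR, hsa-miR-92a-3p (-0.79, adjusted p = 0.0229), where 1.36% of all tested features were lower. Of 13 microRNAs typical of blood, endothelial, muscle, liver or neural cells, 7 had a row used here, with summed counts of 285 to 521 in the tDR libraries and 276 to 741 in the control libraries, mostly hsa-miR-9-5p. The blood microRNA hsa-miR-223-3p was at 0 in 1 tDR library and 2 control libraries and had at most 6 counts in a tDR library and 10 in a control library.

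The transcripts are shown because the counting has to tell them apart. They are printed 5′ to 3′ from GENCODE release 29 (GRCh38), and capitals mark the cores of box A and box B, the gene-internal promoter elements that RNA polymerase III factors read in tRNA and vault RNA genes. The 3 genes follow each other on the plus strand of chromosome 5, at chr5:140711275-140711373 (VTRNA1-1), chr5:140718925-140719013 (VTRNA1-2) and chr5:140726158-140726246 (VTRNA1-3), between the coding genes ZMAT2 and PCDHA1. VTRNA3-1P lies on the plus strand at chrX:53462209-53462310, between HSD17B10 and HUWE1. No other annotated gene overlaps any of the 4.
VTRNA1-1: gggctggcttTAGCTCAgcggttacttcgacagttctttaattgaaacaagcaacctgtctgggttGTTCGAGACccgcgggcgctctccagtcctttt
VTRNA1-2: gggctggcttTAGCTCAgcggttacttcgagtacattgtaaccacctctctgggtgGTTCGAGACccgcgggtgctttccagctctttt
VTRNA1-3: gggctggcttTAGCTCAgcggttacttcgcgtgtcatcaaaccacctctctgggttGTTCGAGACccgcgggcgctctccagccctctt
VTRNA3-1P: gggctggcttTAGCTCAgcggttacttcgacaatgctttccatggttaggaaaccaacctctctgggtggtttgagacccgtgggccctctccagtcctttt

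The box A core, searched as TAGCTCA, starts at base 11 of all 4 transcripts. The box B core, searched as GTTCGANNC, starts at base 67 of VTRNA1-1 and at base 57 of VTRNA1-2 and VTRNA1-3. VTRNA3-1P held no match to these letters. Aligned with VTRNA1-2 and counted from 1 at its 5′ end, the copy carries C60T inside the box B core. Of 4844 GENCODE transcripts of 80 to 130 bases, 0.516% held the box A core and 0.227% the box B core on the transcript strand, and 0.372% and 0.0619% held them on the opposite strand. The 2 motifs do not overlap, and 0.103% of these transcripts held both on the transcript strand. Neither core was found on the opposite strand of the 4 vault transcripts.

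The first 29 bases are identical in all 4 transcripts. Over its whole length VTRNA1-2 was most like VTRNA1-3, with 87.8% identical alignment columns, and VTRNA1-1 was most like VTRNA3-1P, with 83.8%. Of the 20-base windows of each transcript, 52 of 80 in VTRNA1-1, 56 of 70 in VTRNA1-2, 45 of 70 in VTRNA1-3 and 70 of 83 in VTRNA3-1P occur in no other GENCODE gene. The sources used here do not say how the authors' counting placed reads from the shared stretches, so the split of counts among the 4 rows is uncertain to that extent. A short read from the shared start cannot be assigned to 1 of them by its sequence.

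Per length, VTRNA1-2 and VTRNA1-1 were the abundant vault RNAs, and VTRNA1-3 and the pseudogene copy were lower. On the scale of TMM-scaled CPM (counts relative to the library total) per 100 bases of transcript, VTRNA1-2 stood at 58.2 ± 4.86 in the tDR libraries and 68.8 ± 4.65 in the control libraries, and VTRNA1-1 at 52.4 ± 3.85 and 64.4 ± 5.71 (SD, n = 4 each). The ranges of these neighbours overlapped in both groups. VTRNA1-3 stood at 19.6 ± 2.24 in the tDR libraries and 23.6 ± 4.56 in the control libraries on that scale, and VTRNA3-1P at 10.3 ± 1.71 and 15.3 ± 0.571. Neither range met that of a neighbour in either group. By CPM in the control libraries, VTRNA1-1, VTRNA1-2, VTRNA1-3 and VTRNA3-1P ranked 475, 485, 781 and 868 among the 1761 features that passed the filter on low counts.

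The comparison asks whether vault RNA levels differ once the fragment is supplied. All 4 rows had lower mean CPM in the tDR libraries than in the control libraries, with fitted levels of 0.673 to 0.848 times the control, and none passed the test across all features. The 4 rows together held 129, 139.97, 135 and 123 CPM in tDR libraries 1 to 4 and 156, 155, 172 and 163 CPM in control libraries 1 to 4. Every tDR library was below every control library for this sum, which is given as a description with no test. The part of the lower median of the HEK293 microRNAs in this difference was not tested. In these bulk libraries, fewer cells holding an RNA and less of it per cell cannot be told apart.

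VTRNA1-1, the gene whose RNA binds SQSTM1, had 400, 352, 370 and 334 counts in tDR libraries 1 to 4 and 467, 639, 320 and 725 counts in control libraries 1 to 4. That made 54.5, 54.9, 51.5 and 46.6 CPM in the tDR libraries and 59.3, 60.6, 71.9 and 63.1 CPM in the control libraries. The groups did not overlap, with control library 1 nearest to the tDR libraries and control library 3 the highest. The log2 fold change, tDR over control, was -0.29 (SE 0.14, 95% interval -0.59 to -0.0026), which missed the threshold in the quasi-likelihood test of edgeR, Benjamini-Hochberg adjusted over all features (adjusted p = 0.229, unadjusted p = 0.0482).

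VTRNA1-2 had 47.6, 51.9, 57.7 and 50.1 CPM in tDR libraries 1 to 4 and 64.1, 57.4, 65.4 and 57.9 CPM in control libraries 1 to 4, from 333 to 415 counts a library in tDR and 291 to 665 in control. The groups overlapped, because tDR library 3 lay above control library 2. Its log2 fold change was -0.24 (SE 0.14, 95% interval -0.53 to 0.053), which did not pass edgeR's test (adjusted p = 0.339).

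VTRNA1-3, the least abundant of the 3 genes, had 17.0, 20.1, 15.3 and 17.2 CPM in tDR libraries 1 to 4 and 17.3, 22.3, 18.4 and 26.2 CPM in control libraries 1 to 4. The groups overlapped, with tDR library 2 above control libraries 1 and 3, and the control libraries were spread more widely. Its log2 fold change was -0.28 (SE 0.19, 95% interval -0.67 to 0.10; edgeR adjusted p = 0.405). The coefficient of variation was 11.4% in the tDR libraries and 19.3% in the control libraries, where counting error alone gives 9.08% and 7.78%.

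VTRNA3-1P, the pseudogene copy, had the largest difference of the 4 rows and the lowest counts. It had 69, 84, 72 and 68 counts in tDR libraries 1 to 4 and 120, 158, 72 and 184 counts in control libraries 1 to 4, or 9.40, 13.1, 10.0 and 9.50 CPM in the tDR libraries and 15.2, 14.98, 16.2 and 16.0 CPM in the control libraries. The groups did not overlap, and on this CPM scale tDR library 2 stood apart from the other tDR libraries on the high side. The log2 fold change was -0.57 (SE 0.19, 95% interval -0.97 to -0.17), with an edgeR adjusted p of 0.0818 and an unadjusted p of 0.0078.

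The control libraries agreed on VTRNA3-1P more closely than counting alone would give, with an SD of 0.583 CPM against a counting error of 1.45 CPM. In the tDR libraries the SD was 1.75 CPM against a counting error of 1.23 CPM. The row passed the threshold under 4 other settings, namely DESeq2 size factors (adjusted p = 0.0422), total counts (0.0387), a mean count of at least 50 (0.022) and the DESeq2 Wald test (0.0116). Its adjusted p over all alternatives ran from 0.0116 to 0.502. The authors' deposited normalized values, counts divided by a factor per library, were 69.3, 89.7, 81.9 and 75.9 in tDR libraries 1 to 4 and 114, 109.6, 118 and 116 in control libraries 1 to 4.

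**Figure D1:**
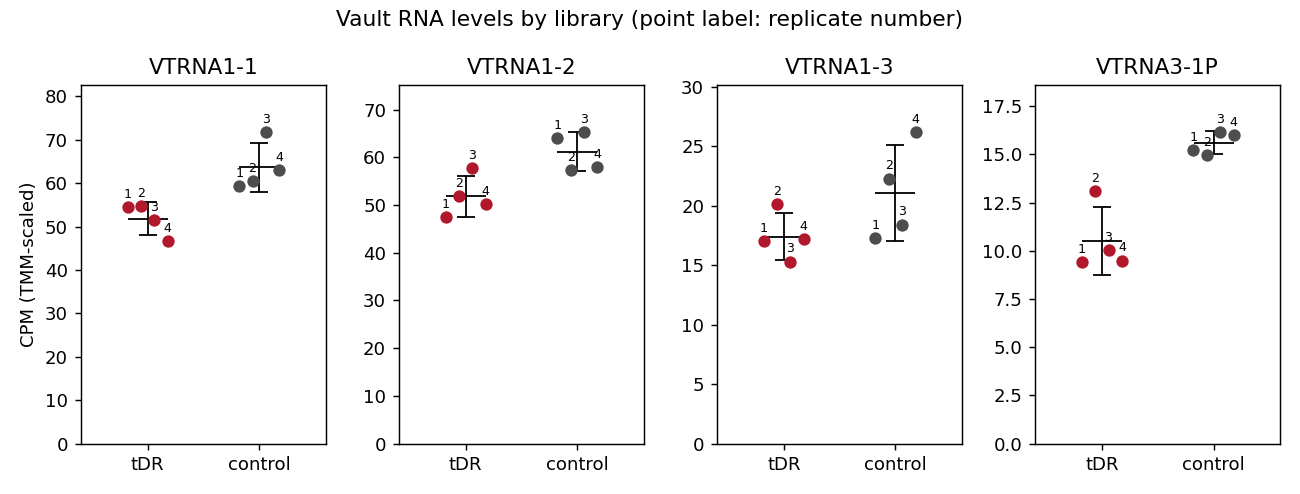
Each panel plots one vault RNA row, with TMM-scaled CPM on a linear axis from 0, the 4 tDR libraries (red) left of the 4 control libraries (grey), replicate numbers above the points, and mean and SD as bars. The groups do not overlap for VTRNA1-1 and VTRNA3-1P and overlap for VTRNA1-2 and VTRNA1-3.

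Of the 4 rows, 0 passed edgeR and limma-voom and 1, VTRNA3-1P, passed the DESeq2 Wald test, while 2 had an unadjusted edgeR p below 0.05. The DESeq2 Wald test called 11.2% and limma-voom 6.87% of the features for which they returned an adjusted value. Over all 1761 tested features edgeR called 6.7%, with 5.34% higher and 1.36% lower, and 21.5% had an unadjusted p below 0.05. That background is 118 features, and it was 65 without control library 2 and 70 without control library 3. The 94 higher and 24 lower calls became 54 and 39 with total counts and 157 and 1 with scaling on microRNAs alone. The CPM groups did not overlap, with tDR lower, for 2 of the 4 rows and for 5.51% of all tested features. The median log2 fold change was -0.29 over the 4 rows and 0.02 over all tested features. VTRNA1-1, VTRNA1-2 and VTRNA1-3 lay below the lower quartile of all tested features (-0.21), with 19.3%, 22.8% and 19.6% of features at a lower log2 fold change. For VTRNA3-1P that share was 6.64%. The intervals of the 3 genes allow, at their lower ends, levels of 0.666, 0.694 and 0.627 times the control, and at their upper ends levels of 0.998, 1.04 and 1.08 times the control, in the order VTRNA1-1, VTRNA1-2, VTRNA1-3.

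**Figure D2:**
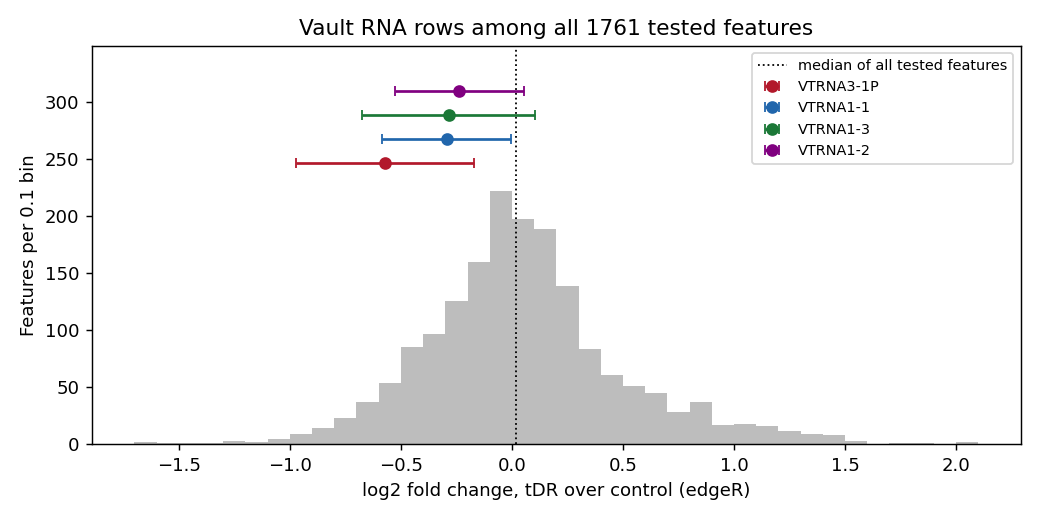
The grey histogram counts all 1761 tested features by log2 fold change, tDR over control, in bins of 0.1, with their median dotted. Coloured points give the 4 vault RNA rows with 95% intervals, from -0.57 for VTRNA3-1P to -0.24 for VTRNA1-2, at heights with no meaning.

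The sign of the 3 genes depended on what was held constant. Scaling on microRNAs alone moved the median of all features to 0.36 and gave log2 fold changes of 0.052 for VTRNA1-1, 0.12 for VTRNA1-2, 0.077 for VTRNA1-3 and -0.24 for VTRNA3-1P, none of which passed (edgeR adjusted p from 0.502 to 0.881). Total counts moved the median of all features to -0.13 and gave -0.45, -0.39, -0.44 and -0.73 in the same order of rows. Relative to the median of all features, each row stayed below 0 under all 22 alternatives, between -0.37 and -0.24 for VTRNA1-1, -0.34 and -0.19 for VTRNA1-2, -0.41 and -0.18 for VTRNA1-3 and -0.67 and -0.52 for VTRNA3-1P. A change of scaling moves all features by nearly the same amount, and subtracting the median removes that shift. For the alternatives that change only the scaling, this outcome was therefore nearly fixed in advance.

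**Figure D3:**
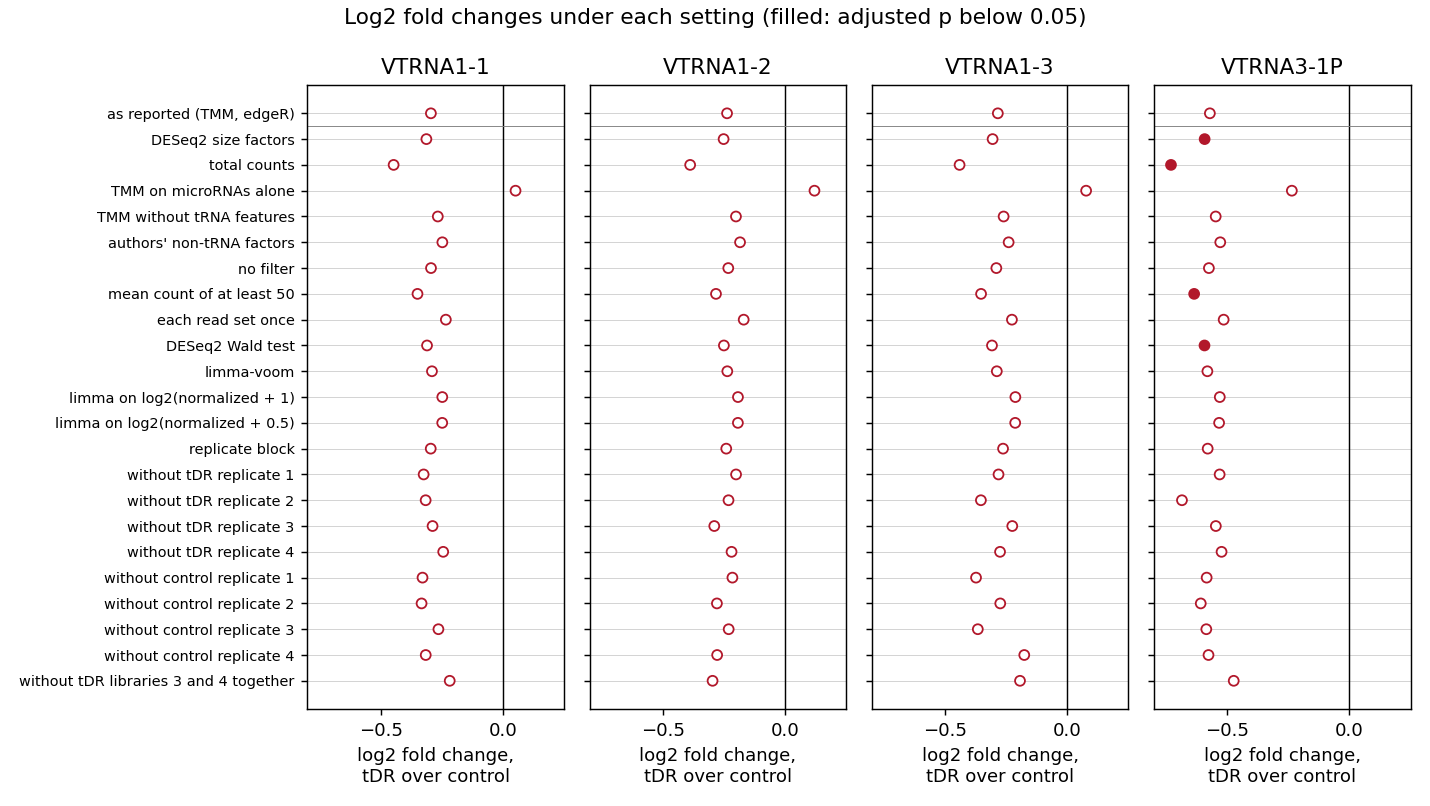
Each panel gives one vault RNA row, with the log2 fold change (tDR over control) on the horizontal axis and one processing setting per line, filled where the adjusted p was below 0.05. Only VTRNA3-1P has filled points, at 4 settings, and scaling on microRNAs alone is the 1 setting that puts the other 3 rows above 0.

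The proportions among the 4 rows need no scaling between libraries, so they were compared as shares of the vault RNA counts. VTRNA1-1 made up 42.4%, 39.2%, 38.3% and 37.8% in tDR libraries 1 to 4 and 38.0%, 39.0%, 41.8% and 38.7% in control libraries 1 to 4. VTRNA1-2 made up 37.0%, 37.1%, 42.9% and 40.6% in tDR libraries 1 to 4 and 41.1%, 37.0%, 38.0% and 35.5% in control libraries 1 to 4. These groups overlapped throughout, and the share of VTRNA1-2 differed by 1.51 percentage points (exact two-sided permutation p = 0.429, adjusted over the 4 shares 0.857). VTRNA1-3 averaged 13.2% ± 1.32 in the tDR libraries and 13.1% ± 2.59 in the control libraries (SD, n = 4 each, exact permutation p = 0.83, adjusted 1.0).

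The pseudogene copy VTRNA3-1P made up 7.32%, 9.35%, 7.45% and 7.69% in tDR libraries 1 to 4 and 9.77%, 9.65%, 9.41% and 9.81% in control libraries 1 to 4. All tDR libraries lay below all control libraries, tDR library 2 by less than 0.1 of a percentage point. The difference of -1.71 percentage points had an exact two-sided permutation p of 0.0286, the smallest that 4 against 4 libraries can give, and did not pass after adjustment over the 4 shares (0.114). A single share at this smallest p cannot pass that adjustment, so for 1 separated share this outcome was fixed in advance. The 95% exact binomial intervals of its single shares reached 1.37 to 2.13 percentage points to either side, as wide as the difference, and they cover counting error only.

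**Figure D4:**
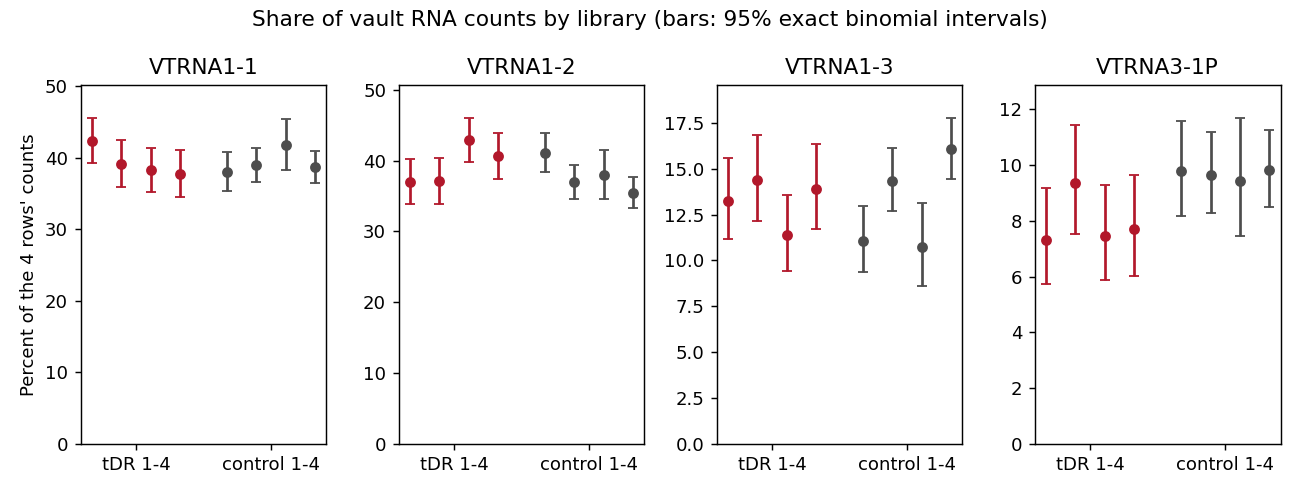
Each panel plots one row's percent of the counts of all 4 vault RNA rows on an axis from 0, for tDR libraries 1 to 4 (red, left) and control libraries 1 to 4 (grey, right), with 95% exact binomial intervals. VTRNA1-1 and VTRNA1-2 each stay between 35.5% and 42.9%, and VTRNA3-1P is lower in the tDR libraries with overlapping intervals.

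The profile over the 8 libraries showed which features moved most like each vault RNA. Likeness was the root mean square difference of log2 CPM, each feature centred on its own mean, over 902 features with a mean count of at least 50. For VTRNA1-1 the closest were RNY1P5 (0.0745), Y_RNA.510 (0.0802), both copies of Y RNA genes, and the 7SK copy RN7SKP187 (0.0942), where the median feature was at 0.313. For VTRNA1-2 they were RN7SKP292 (0.0892), the H/ACA snoRNA SNORA28 (0.0894) and the U6 copy RNU6-25P (0.101). For VTRNA1-3 they were RNU6-81P (0.1), RNU6-333P (0.119) and hsa-miR-4454 (0.123), and for VTRNA3-1P they were RNU6-256P (0.134), RNU6-216P (0.153) and RNU2-59P (0.153). VTRNA1-1 and VTRNA1-2 were 0.127 apart. VTRNA1-3 was 0.215 from VTRNA1-1 and 0.263 from VTRNA1-2. VTRNA3-1P was 0.189 from VTRNA1-1, 0.224 from VTRNA1-2 and 0.241 from VTRNA1-3. The median feature was at 0.312 for VTRNA1-2, 0.353 for VTRNA1-3 and 0.41 for VTRNA3-1P. Counting error alone was larger for VTRNA1-3, at 9.08% of the level in the tDR libraries and 7.78% in the control libraries, against 5.25% and 4.64% for VTRNA1-1, and its part in these distances was not tested.

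Other transcripts of RNA polymerase III were set beside the vault RNAs. Of 26 tested rows of genes with internal promoter boxes (the signal recognition particle RNAs RN7SL1 and RN7SL2, the neuronal RNA BCYRN1 and the snaR genes), which rest on 12 sets of equal or nearly equal counts, 0 passed edgeR in either direction, against 6.7% of all features. Their median log2 fold change was -0.19, and 25 of the 26 were below 0, against 47.8% of all tested features. That count fell to 17 without tDR library 3, 17 without control library 3 and 18 without tDR libraries 3 and 4 together. Rows with equal counts repeat the same reads in it. With each set of counts used once, 10 of 12 were below 0, and the list median was -0.079 against 0.11 for all features. SNAR-A12 averaged 25.5 ± 3.20 CPM in the tDR libraries and 32.4 ± 4.13 CPM in the control libraries (SD, n = 4 each), a log2 fold change of -0.34 (edgeR adjusted p = 0.236). RN7SL2 averaged 762.2 ± 102 CPM in the tDR libraries and 903 ± 186 CPM in the control libraries, a log2 fold change of -0.24 (edgeR adjusted p = 0.424). The median of this list was above 0 under scaling on microRNAs alone (0.14) and below 0 under the other 21 alternatives.

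Of 13 genes with upstream promoters 2 were higher in edgeR, RNY4 (log2 fold change 0.76, adjusted p = 0.0028) and RMRP (0.62, adjusted p = 0.0119), and 0 lower, where 5.34% of all tested features were higher, and the list median was 0.016. With the replicate block 1 of the 13 was called. RNU6ATAC, the U6atac RNA of the minor spliceosome, had a log2 fold change of -0.48 in edgeR (adjusted p = 0.0662). All 17 of the 5S rRNA genes, which rest on 2 sets of counts, were between -0.090 and -0.079, and 0 passed. Their median was 0.24 under scaling on microRNAs alone. Whole tRNAs, which also have internal boxes, had a median of 0.13 with 40 of 217 below 0, and 1 of them, tRNA-Arg-TCT-4, was higher in edgeR (0.86, adjusted p = 0.0264). The number of whole tRNAs called was 0 without tDR library 3, 4 or both, without any 1 of the 4 control libraries, with total counts, with TMM without tRNA features, with a mean count of at least 50 and with the replicate block. The median of the 78 tested precursor tRNA loci was 0.13, and 0 passed. Both tRNA medians turned below 0 under some alternatives, down to -0.18 and -0.081. The differences between these lists and the vault RNAs were not tested.

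**Figure D5:**
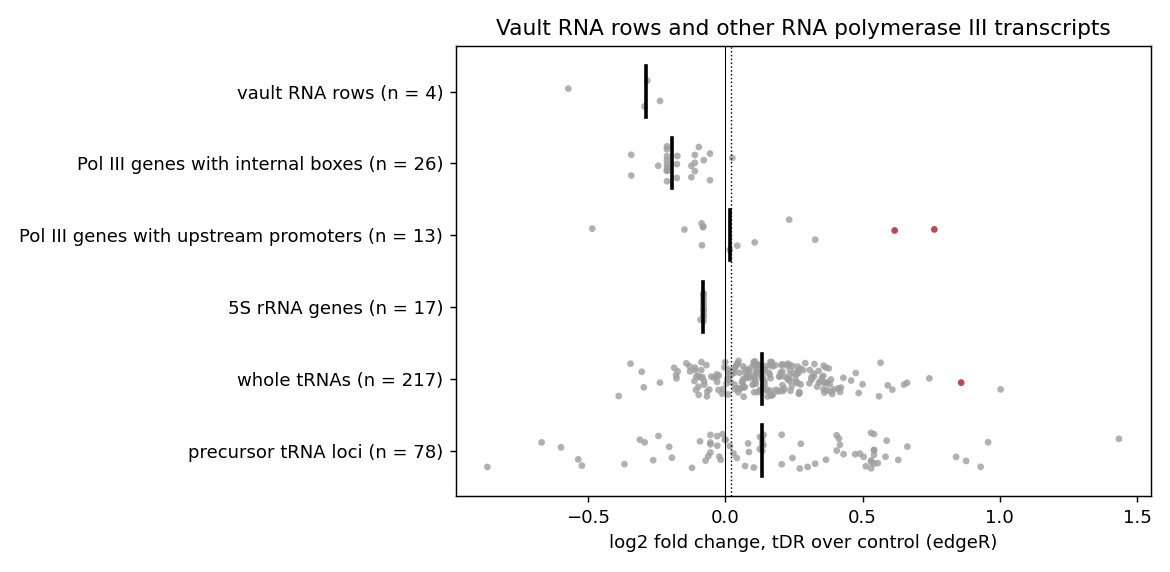
Each point is a tested feature placed by its log2 fold change (tDR over control), one line of points per list with the number of features, red where the adjusted p was below 0.05, a black bar at the list median, a solid line at 0 and a dotted line at the median of all features. The 4 vault RNA rows have their median at -0.29, the genes with internal boxes at -0.19 and whole tRNAs at 0.13.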

How the data were processed

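Small RNA libraries of HEK293 cells were compared, 4 tDR and 4 control, grouped by the labels' titles. The deposited raw table holds whole-number counts per feature, on hg38 according to the submitters' processing notes. Aligner, counting tool and handling of multiply mapping reads do not appear in the labels or file headers. A normalized signal was also deposited, which for rows other than tRNA equals the raw count over 1 factor for each library. The non-gene rows scr and scr2, up to 0.565% of a library's counts, entered neither library sizes nor tests.

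All gene rows were tested with edgeR 4.0.16 under R 4.3.3, after filterByExpr by group, with TMM and a robust quasi-likelihood fit without covariates, and called at an adjusted p below 0.05 over 1761 features. SE was derived as the absolute log2 fold change over root F. The fit was tested on simulated data. The alternatives used limma 3.58.1 and DESeq2 1.42.0, and shares used an exact permutation test (scipy 1.17.1) over 70 arrangements. Sequences and positions come from GENCODE release 29, pairwise identity from Biopython 1.88. No 2 libraries of a group were copies (chi-square per degree of freedom at least 15.6).

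Named features were the VTRNA rows, the 3 features closest in profile to each, and the lowest p and most abundant members of the lists. Members, lists and tests were chosen with earlier results of these data known. VTRNA2-1, planned as a member, was not analysed, and VTRNA3-1P was added after the files were seen. Of 9 vault proteins and vault RNA binders listed, 0 had a row used here.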

Additional observations from a re-analysis of the deposited data

Results flagged for a closer look

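VTRNA3-1P in tDR library 2 stood at 13.1 CPM, far from tDR libraries 1, 3 and 4, which lay between 9.40 and 10.0 CPM. The gap was larger than Dixon's 95% critical share of the group's range for 4 values, a check that chance flags in about 1 of 20 groups and that was run on 16 groups of 4 libraries. That gap is on the scale of TMM-scaled CPM. In the authors' normalized values tDR libraries 1 to 4 stood at 69.3, 89.7, 81.9 and 75.9, with library 2 still highest but the 4 values more evenly spread. The row had 84 counts in tDR library 2. Without it the log2 fold change was -0.69 (edgeR adjusted p = 0.052), against -0.57 with all libraries.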

How the results depend on the processing

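Of 22 alternatives, 21 kept the log2 fold change of VTRNA1-1, VTRNA1-2 and VTRNA1-3 below 0 and not called, and scaling on microRNAs alone turned them to 0.052, 0.12 and 0.077; the cause was not tested. With 1 library left out they ran from -0.33 to -0.24, -0.29 to -0.20 and -0.37 to -0.18. VTRNA3-1P was below 0 under all 22 and was called at -0.59 with DESeq2 size factors, -0.73 with total counts, -0.64 with a mean count of at least 50 and -0.59 with the DESeq2 Wald test. With 1 library left out it ran from -0.69 to -0.52. Without tDR libraries 3 and 4 together, chosen after the data were seen, the 4 rows stood at -0.22, -0.30, -0.19 and -0.47. The 118 features called became 194 with the DESeq2 Wald test, 185 and 184 with limma on the log2 normalized signal plus 1 or 0.5, and 65 to 164 with 1 library left out. With the replicate block 39 were called, and the 4 rows stood at -0.30, -0.24, -0.26 and -0.58 (edgeR adjusted p from 0.266 to 0.606). Same-numbered libraries did not deviate together (correlations -0.345, -0.183, -0.26 and -0.12). Pairs with unlike numbers reached 0.288 (tDR library 3 with control library 1) and 0.223 (tDR library 1 with control library 3). Deviations sum to 0 within a group, so these correlations are not independent and cannot settle whether same-numbered libraries share a batch. What a number marks is not stated in the labels. The share of VTRNA1-1, 0.025 percentage points higher in tDR, became -0.060 per transcript length, -0.78 without VTRNA3-1P and -0.98 to 0.84 with 1 library left out. That of VTRNA1-3 (0.18) became -0.071 and -0.60 to 1.18 in the last 2 cases. Sign flips of same-numbered share differences, the replicate block for shares, called no share. With 4 differences that test cannot reach a p below 0.05, so this outcome was fixed in advance. The planned VTRNA2-1 results were not run. VTRNA3-1P rests on 68 to 184 counts a library, for which counting error alone is 11.7% of the level in the tDR libraries and 9.28% in the control libraries.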
